A study of Homo sapiens with 6 samples.

Results

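Expression was compared across 3 lines for 38 genes of redox defence: NFE2L2, which encodes the transcription factor NRF2, its inhibitor KEAP1, genes that NRF2 is known to drive, and the enzymes of the glutathione and thioredoxin systems. The genes were chosen by symbol, and all 38 were found among the 61498 genes of the deposited tables. All 38 also passed the filter on low counts, although 2 of them, GPX1 and GSTP1, had no read in 1 of the lines. RNA-seq libraries had been made from ribosomal RNA-depleted total RNA of 3 established human cell lines, 2 libraries per line, and no line had received a treatment. RPMI-8226 is a multiple myeloma line, a malignancy of plasma cells. RPMI-8226-R is a line derived from it that is resistant to bortezomib, an inhibitor of the proteasome, and NCI-BL2171 is labelled as B lymphocytes. Libraries are numbered as in the sample titles, which for NCI-BL2171 differ from the numbers in the file names. The labels do not tell separate cultures from repeat libraries, so the p-values below reflect library-to-library spread alone, part of which may be technical.

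KEAP1 holds NRF2 in the cytoplasm and delivers it for destruction by the proteasome. Electrophiles and oxidants modify cysteines of KEAP1, NRF2 then escapes, pairs with small MAF proteins and binds antioxidant response elements near its target genes. Glutathione and thioredoxin are the main thiol reductants of the cell, both are kept reduced by enzymes that use NADPH, and they supply the peroxidases that remove hydrogen peroxide and lipid peroxides. Plasma cells and myeloma cells fold large amounts of immunoglobulin in the endoplasmic reticulum, where disulfide formation itself yields hydrogen peroxide.

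The 6 libraries held 23952370 to 29052199 estimated reads. Markers of the red cell lineage summed to 61430 to 64220 TPM (a level corrected for gene length) in the libraries labelled NCI-BL2171, against 62.0 to 64.9 in RPMI-8226 and 172 to 187 in RPMI-8226-R. All 12 of these markers, among them the globins, reached a mean of 1 TPM there. Of the 8 B cell markers, 2 did so, their sum was 5.07 to 5.09 TPM, and MS4A1 and PAX5 had no read. The markers thus go against the label, and the line is called the libraries labelled NCI-BL2171 throughout. The 8 plasma cell markers summed to 3094 to 3231 TPM in RPMI-8226 and 4443 to 4570 TPM in RPMI-8226-R. The B cell markers summed to 5465 to 5624 TPM in RPMI-8226 and to 152 to 160 TPM in RPMI-8226-R, most of it CD74, and whether this has a part in the differences between the 2 lines was not tested. In the libraries labelled NCI-BL2171 the plasma cell markers summed to 47.9 to 50.5 TPM, and 5 of them had no read. Myeloid markers summed to at most 53.1 TPM and T cell markers to at most 6.71 TPM in any library. Whether these differences of cell type have a part in the comparisons with the libraries labelled NCI-BL2171 was not tested.

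Together the 38 genes made up 1.96% and 1.89% of all TPM in the libraries labelled NCI-BL2171, 1.20% and 1.19% in RPMI-8226, and 1.16% and 1.15% in RPMI-8226-R. Ferritin, the iron-storage shell built from the FTH1 and FTL chains, carried most of that in 2 of the lines. Its share of the members' TPM was 54.6% and 54.4% in the libraries labelled NCI-BL2171, 58.2% and 58.0% in RPMI-8226, and 41.8% and 41.0% in RPMI-8226-R. The other 36 members summed to 5030 and 5008 TPM in RPMI-8226 and to 6736 and 6767 TPM in RPMI-8226-R. Over 15379 genes, ratios of RPMI-8226-R over RPMI-8226 lay a median of 0.38 log2 units higher on TPM than on normalised counts. The part of this shift in those sums was not tested. On the scale of TMM-normalised CPM (counts scaled to library size, for comparing 1 gene between libraries), 22 members were highest in the libraries labelled NCI-BL2171, 6 in RPMI-8226 and 10 in RPMI-8226-R. In the same order, 14, 11 and 13 members were lowest there. On the TPM scale 21, 4 and 13 were highest. Such a split over all genes was not computed, so these counts have no background. In bulk RNA, fewer cells that express a gene and less of its RNA per cell cannot be told apart.

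**Figure D1:**
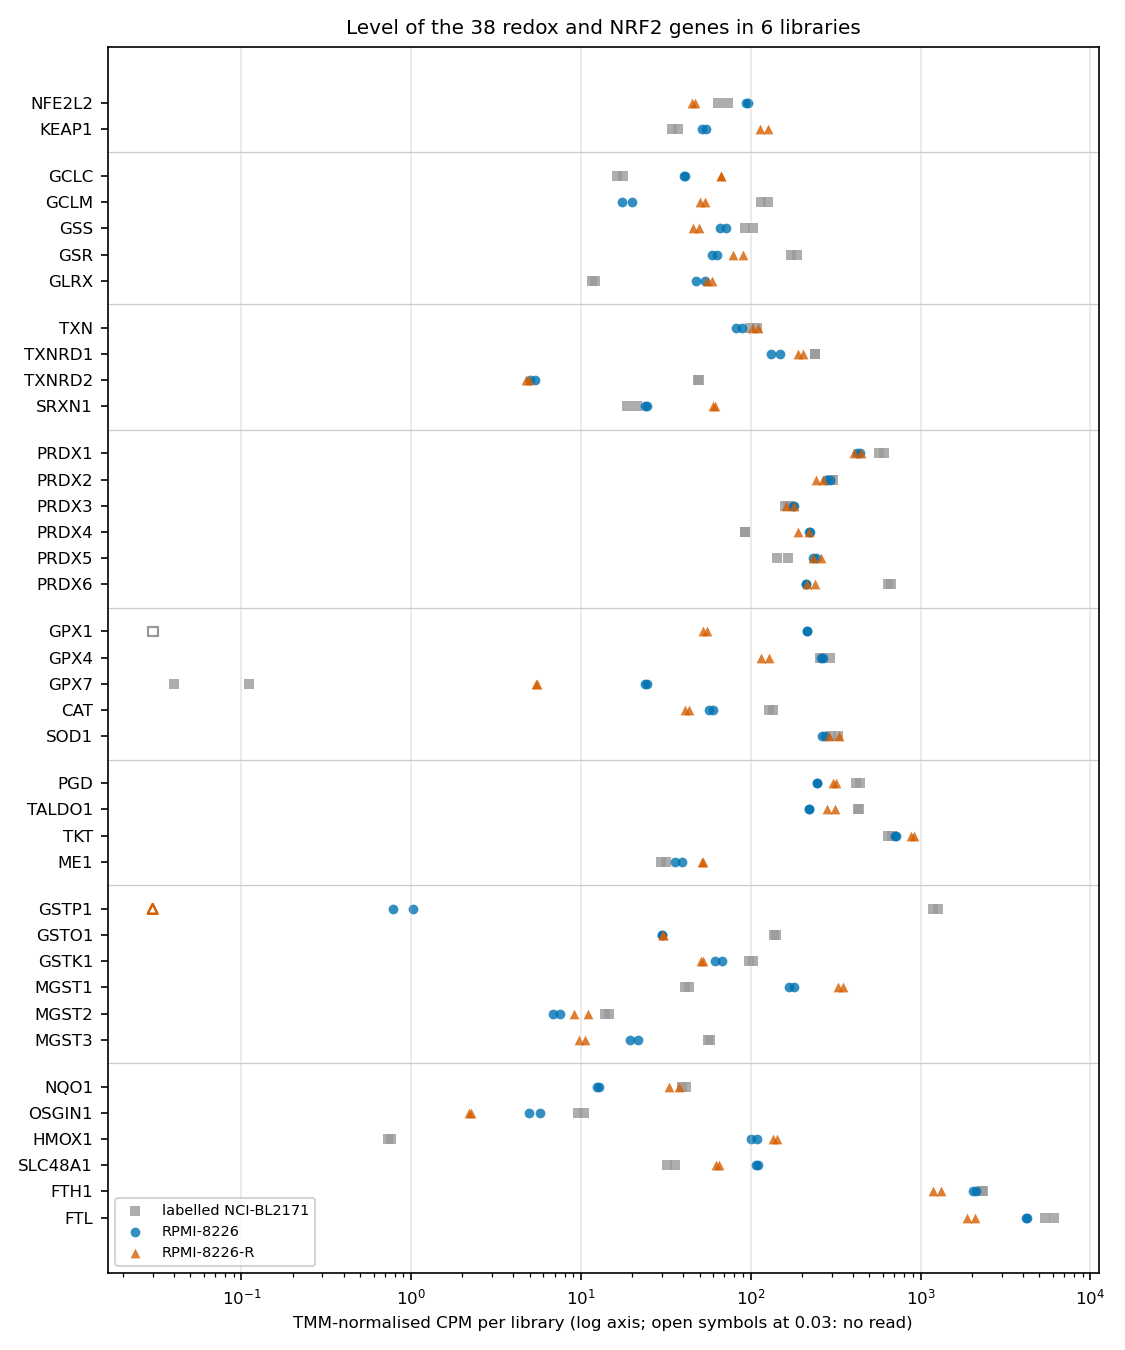
Level of each of the 38 members in the 6 libraries, as TMM-normalised CPM on a log axis, grouped by role from top to bottom. Grey squares are the libraries labelled NCI-BL2171, blue circles RPMI-8226 and orange triangles RPMI-8226-R; open symbols at 0.03 stand for no read, seen for GPX1 in the libraries labelled NCI-BL2171 and for GSTP1 in RPMI-8226-R.

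The first comparison, RPMI-8226-R against RPMI-8226, asks how the resistant line differs from its parent. Of the 38 members, 16 rose and 14 fell in RPMI-8226-R at an adjusted p under 0.05 (edgeR quasi-likelihood test, Benjamini-Hochberg adjustment over 20081 genes), and 8 did not pass. On the TPM scale 3 of the members that fell, GSS, PRDX2 and GSTK1, turned to higher. Over all genes tested, 28.5% were called higher and 37.2% lower, so calls were common everywhere. The median log2 fold change of the members was 0.04, against -0.12 over all genes tested. Of the 30 members called, 12 changed at least 2-fold. The median absolute log2 fold change of all genes tested was 0.72, and their share with a 2-fold change was not computed. KEAP1, the glutamate-cysteine ligase subunits, sulfiredoxin, NQO1, MGST1 and all 4 genes of NADPH supply were higher in RPMI-8226-R. NFE2L2, the 3 glutathione peroxidases, catalase, both ferritin chains, GSTP1 and MGST3 were lower.

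**Figure D2:**
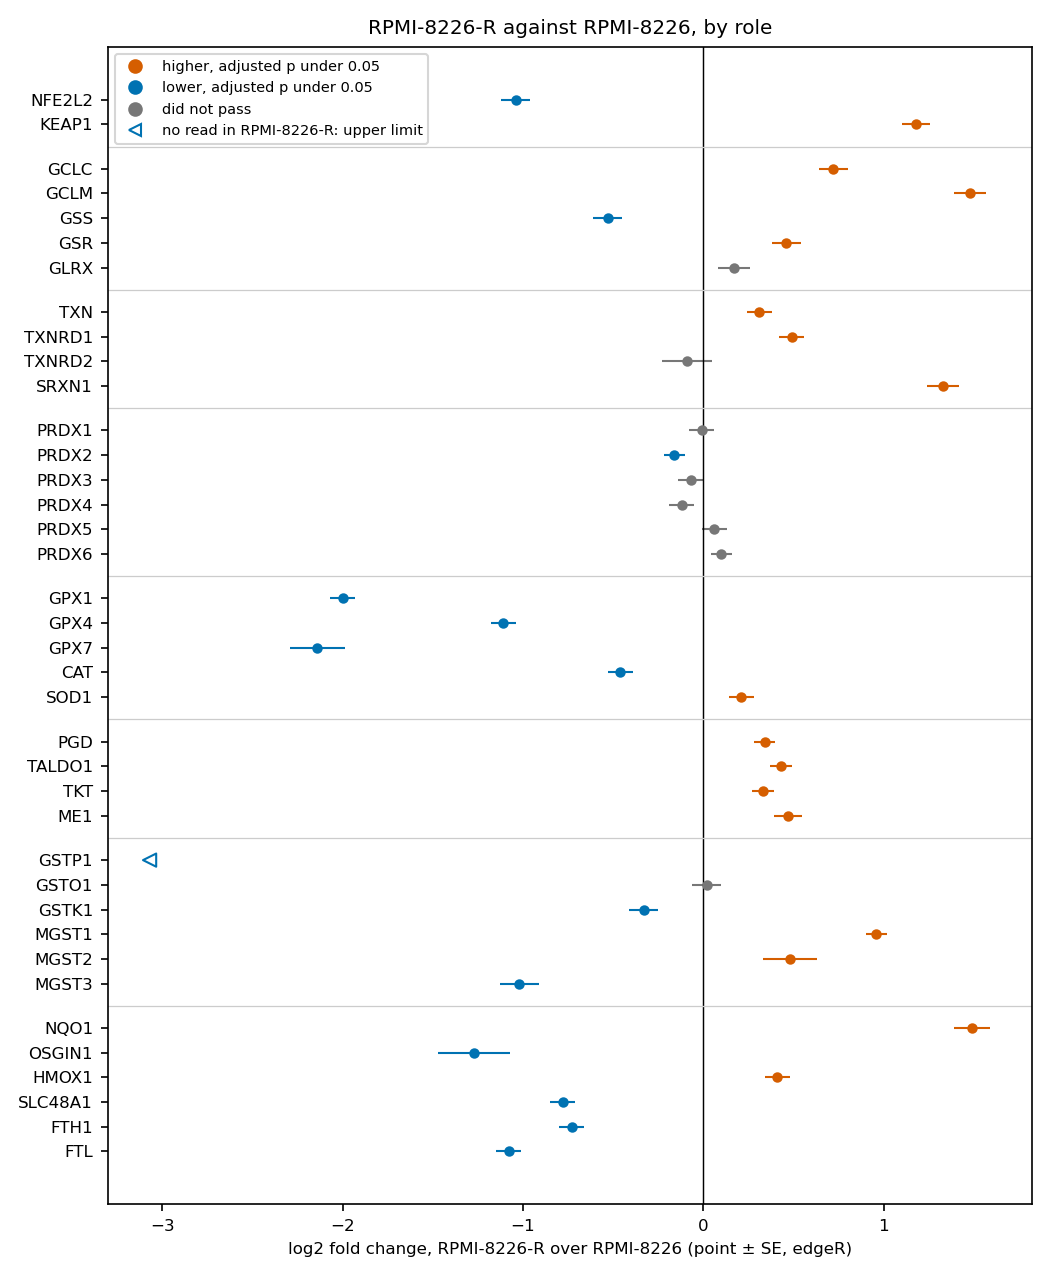
Log2 fold change of each member in RPMI-8226-R over RPMI-8226 (point) with its SE (bar), from edgeR, grouped by role from top to bottom. Orange marks the 16 members called higher, blue the 14 called lower (of which GSS, PRDX2 and GSTK1 turn to higher on the TPM scale) and grey the 8 that did not pass; the open triangle is the limit for GSTP1, which had no read in RPMI-8226-R.

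The sensor and the factor moved in opposite directions. NFE2L2 stood at 93.7 and 96.4 CPM in RPMI-8226 and at 45.15 and 47.0 CPM in RPMI-8226-R (log2 fold change -1.04 ± 0.08, adjusted p = 1.6e-10 by edgeR). KEAP1 stood at 54.3 and 51.9 CPM in RPMI-8226 and at 126 and 114 CPM in RPMI-8226-R (log2 fold change 1.18 ± 0.08, adjusted p = 1.9e-11 by edgeR). The 2 lines did not overlap for either gene. That held for 35 of the 38 members, among them GSTO1 and TXNRD2, which did not pass. Lack of overlap, here and below, thus sets no member apart, and its share over all genes was not computed. On the TPM scale the ratio of NFE2L2 to KEAP1 was 1.67 and 1.92 in RPMI-8226 and 0.405 and 0.446 in RPMI-8226-R. In the libraries labelled NCI-BL2171 it was 2.64 and 1.95. These are transcript levels, and NRF2 is controlled largely by the stability of its protein, which was not measured.

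Among the genes that make and recycle glutathione, 3 of 5 rose, 1 fell and 1 did not pass. GCLM, the modifier subunit of glutamate-cysteine ligase, which makes the rate-limiting step of glutathione synthesis, stood at 19.9 and 17.4 CPM in RPMI-8226 and at 53.9 and 50.2 CPM in RPMI-8226-R. Its log2 fold change was 1.48 ± 0.09, with an adjusted p of 4.9e-12 by edgeR. GCLC, the catalytic subunit of the same enzyme, stood at 40.75 and 40.5 CPM and at 67.1 and 66.3 CPM (log2 fold change 0.72 ± 0.08, adjusted p = 8.8e-08 by edgeR). Both subunits were thus higher in both libraries of RPMI-8226-R than in either of RPMI-8226. The ratio of GCLM to GCLC on the TPM scale was 0.186 and 0.193 in RPMI-8226 and 0.358 and 0.302 in RPMI-8226-R. GSR, the reductase that returns oxidised glutathione to its reduced form, rose by 0.46 ± 0.08 (log2, edgeR adjusted p = 2.5e-05). GSS, the synthetase of the second step of glutathione synthesis, was lower by this test at -0.53 ± 0.08 (log2, edgeR adjusted p = 5.5e-06), but the call was lost with an effective-length offset, at -0.21 and adjusted p = 0.15, and the value was 0.12 on the TPM scale. GLRX, a glutaredoxin that removes glutathione from proteins, did not pass at 0.17 ± 0.09 (log2), although it passed at 0.32 with that offset. Its locus overlaps RHOBTB3 on the opposite strand, and the strand setting of the quantifier is not stated.

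In the thioredoxin system 3 of 4 members rose and none fell. SRXN1, sulfiredoxin, which repairs overoxidised peroxiredoxins, stood at 24.32 and 23.96 CPM in RPMI-8226 and at 61.2 and 60.1 CPM in RPMI-8226-R. The log2 fold change, 1.33 ± 0.09 with an adjusted p of 3.2e-11 by edgeR, was the largest of the 4. TXNRD1, the cytosolic thioredoxin reductase, stood at 132 and 148 CPM and at 202 and 190 CPM (log2 fold change 0.49 ± 0.07, adjusted p = 1.6e-06 by edgeR). Its counting is uncertain, because a pseudogene within it on the same strand, RPL18AP3, held 22120 to 39200 reads. TXN, cytosolic thioredoxin, rose by 0.31 ± 0.07 (log2, edgeR adjusted p = 0.00079). Its value is uncertain, because 7 processed copies of TXN held 80.7% to 94.0% as many reads as the gene itself. TXNRD2, the mitochondrial thioredoxin reductase, did not pass at -0.09 ± 0.14 (log2), with 5.02 and 5.34 CPM in RPMI-8226 and 4.75 and 4.95 CPM in RPMI-8226-R.

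The 6 peroxiredoxins, which reduce hydrogen peroxide, were read differently by the scales. On counts none was called higher, 1 was called lower and 5 did not pass. On log2(TPM + 1), limma-trend called all 6 higher, from 0.24 for PRDX2 to 0.47 for PRDX5, with adjusted p from 0.00064 to 0.0093. Over 15379 genes the TPM scale lay above the CPM scale by a median of 0.38 log2 units in this comparison. With that shift taken off the log2 ratios of mean TPM, the 6 ran from -0.14 for PRDX2 to 0.09 for PRDX5. On counts their log2 fold changes ran from -0.16 for PRDX2 to 0.10 for PRDX6. Summed, they stood at 1612 and 1610 TPM in RPMI-8226 and at 2072 and 1990 TPM in RPMI-8226-R. PRDX2 stood at 276 and 291 CPM in RPMI-8226 and at 266 and 242 CPM in RPMI-8226-R (edgeR adjusted p = 0.036). That call was lost under most of the alternatives tried, for example at -0.11 in DESeq2, at -0.15 with no filter on low counts or at -0.08 without RPMI-8226-R replicate 2. PRDX4, the peroxiredoxin of the endoplasmic reticulum, stood at 221 and 224 CPM in RPMI-8226 and at 220 and 190 CPM in RPMI-8226-R, and was called lower, at -0.22, without RPMI-8226-R replicate 1. PRDX6 was called higher without RPMI-8226-R replicate 2, at 0.19, and also in DESeq2, at 0.15. Between the 2 libraries of RPMI-8226-R, replicate 1 had the higher CPM for 33 members and replicate 2 for 4, while on the TPM scale the split was 19 and 18. The part of this offset in the peroxiredoxin values was not tested.

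Of the glutathione peroxidases, catalase and superoxide dismutase, 4 of 5 fell and 1 rose, and the glutathione peroxidases fell most. GPX1, the cytosolic glutathione peroxidase, stood at 215 and 214 CPM in RPMI-8226 and at 55.05 and 52.0 CPM in RPMI-8226-R (log2 fold change -2.0 ± 0.07, adjusted p = 3e-15 by edgeR). GPX4, which reduces lipid peroxides in membranes and so restrains ferroptosis, stood at 266 and 260 CPM and at 128 and 116 CPM. Its log2 fold change was -1.11 ± 0.07, with an adjusted p of 1.7e-11 by edgeR. GPX7, a peroxidase of the endoplasmic reticulum that carries cysteine in place of selenocysteine, stood at 23.8 and 24.6 CPM in RPMI-8226 and at 5.53 and 5.44 CPM in RPMI-8226-R. The log2 fold change, -2.14 ± 0.15 with an adjusted p of 5.2e-11 by edgeR, was close to that of GPX1, and no library of 1 line overlapped the other line for any of the 3. CAT, the peroxisomal catalase, was lower at -0.46 ± 0.07 (log2, edgeR adjusted p = 1.2e-05), a call that was lost on the TPM scale at -0.12. SOD1, the copper-zinc superoxide dismutase of the cytosol, was higher at 0.21 ± 0.07 (log2, edgeR adjusted p = 0.015), and the call was lost without RPMI-8226 replicate 2 at 0.17 and without RPMI-8226-R replicate 1 at 0.11. GPX1 has 2 processed copies, which held 13.01% to 14.58% as many reads as the gene in the RPMI-8226 lines and no read in the libraries labelled NCI-BL2171.

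All 4 genes of NADPH supply rose by similar amounts. The log2 fold changes were 0.34 ± 0.06 for PGD, 0.43 ± 0.06 for TALDO1, 0.33 ± 0.06 for TKT and 0.47 ± 0.08 for ME1. PGD is the second NADPH-forming step of the pentose phosphate pathway, TALDO1 and TKT run its non-oxidative branch, and ME1 is the cytosolic malic enzyme. TKT, the most abundant of them on the TPM scale in both lines, stood at 707 and 713 CPM in RPMI-8226 and at 913 and 876 CPM in RPMI-8226-R (edgeR adjusted p = 6.2e-05). ME1 stood at 39.4 and 36.0 CPM in RPMI-8226 and at 52.4 and 51.9 CPM in RPMI-8226-R (edgeR adjusted p = 5e-05). PGD is less certain than the others, since a processed copy held 11.6% to 14.7% as many reads as the gene.

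The 6 glutathione transferases were split, with 2 higher, 3 lower and 1 that did not pass. MGST1, a membrane-bound transferase that also reduces lipid peroxides, stood at 168 and 179 CPM in RPMI-8226 and at 349 and 326 CPM in RPMI-8226-R (log2 fold change 0.96 ± 0.06, adjusted p = 3.6e-11 by edgeR). MGST3, of the same membrane family, moved the other way, from 19.5 and 21.7 CPM to 10.5 and 9.74 CPM (log2 fold change -1.02 ± 0.11, adjusted p = 3e-08 by edgeR). MGST2, the third of that family, was higher at 0.48 ± 0.15 (log2, edgeR adjusted p = 0.0093), and the call was lost without RPMI-8226 replicate 1 at 0.41 and without RPMI-8226-R replicate 1 at 0.34. The MGST2 locus overlaps a processed pseudogene, H3F3AP6, on the opposite strand. That copy held 808 to 1060 reads, against 185 to 398 for MGST2, and the strand setting of the quantifier is not stated. The MGST1 locus likewise overlaps a processed pseudogene on the opposite strand, SUPT16HP1, which held 660 to 2444 reads, against 1081 to 9421 for MGST1. GSTP1, the main cytosolic transferase of many tissues, had 21 and 26 reads in RPMI-8226 and no read in either library of RPMI-8226-R. Against a floor of 3 counts per library it was at least 8.40-fold lower in RPMI-8226-R (edgeR adjusted p = 8.7e-08). GSTK1, a transferase of mitochondria and peroxisomes, was lower at -0.33 ± 0.08 (log2, edgeR adjusted p = 0.00069) but stood at 0.03 on the TPM scale, and GSTO1, an omega-class transferase, did not pass at 0.02 ± 0.08 (log2).

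Of the 6 haem, iron and other NRF2 targets, 2 rose and 4 fell. NQO1, a quinone reductase widely used as a readout of NRF2, stood at 12.75 and 12.4 CPM in RPMI-8226 and at 37.6 and 33.1 CPM in RPMI-8226-R (log2 fold change 1.49 ± 0.10, adjusted p = 4.5e-11 by edgeR). OSGIN1, a growth inhibitor induced by oxidative stress, stood at 5.76 and 4.94 CPM and at 2.26 and 2.18 CPM (log2 fold change -1.27 ± 0.20, adjusted p = 1.4e-05 by edgeR). These 2 target genes thus moved apart, with no overlap between the lines for either, which held for 35 of the 38 members. HMOX1, the inducible haem oxygenase, which frees iron from haem, stood at 101 and 109 CPM and at 143 and 135 CPM (log2 fold change 0.41 ± 0.07, adjusted p = 2.9e-05 by edgeR). SLC48A1, which carries haem out of lysosomes, fell from 107 and 111 CPM to 65.0 and 62.0 CPM, a log2 fold change of -0.78 ± 0.07. FTL, the ferritin light chain, fell from 4213 and 4159 CPM to 2079 and 1876 CPM (log2 fold change -1.08 ± 0.07, adjusted p = 1.8e-11 by edgeR). FTH1, the ferritin heavy chain and its ferroxidase, fell from 2031 and 2109 CPM to 1326 and 1177 CPM (log2 fold change -0.73 ± 0.07, adjusted p = 3.8e-09 by edgeR). Processed copies held 62.5% to 64.6% as many reads as FTH1 and 28.96% to 31.41% as many as FTL. Adding the reads of all such copies to their parent genes, an alternative chosen after the data were seen, changed no member's call or direction in any of the 3 comparisons.

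**Figure D3:**
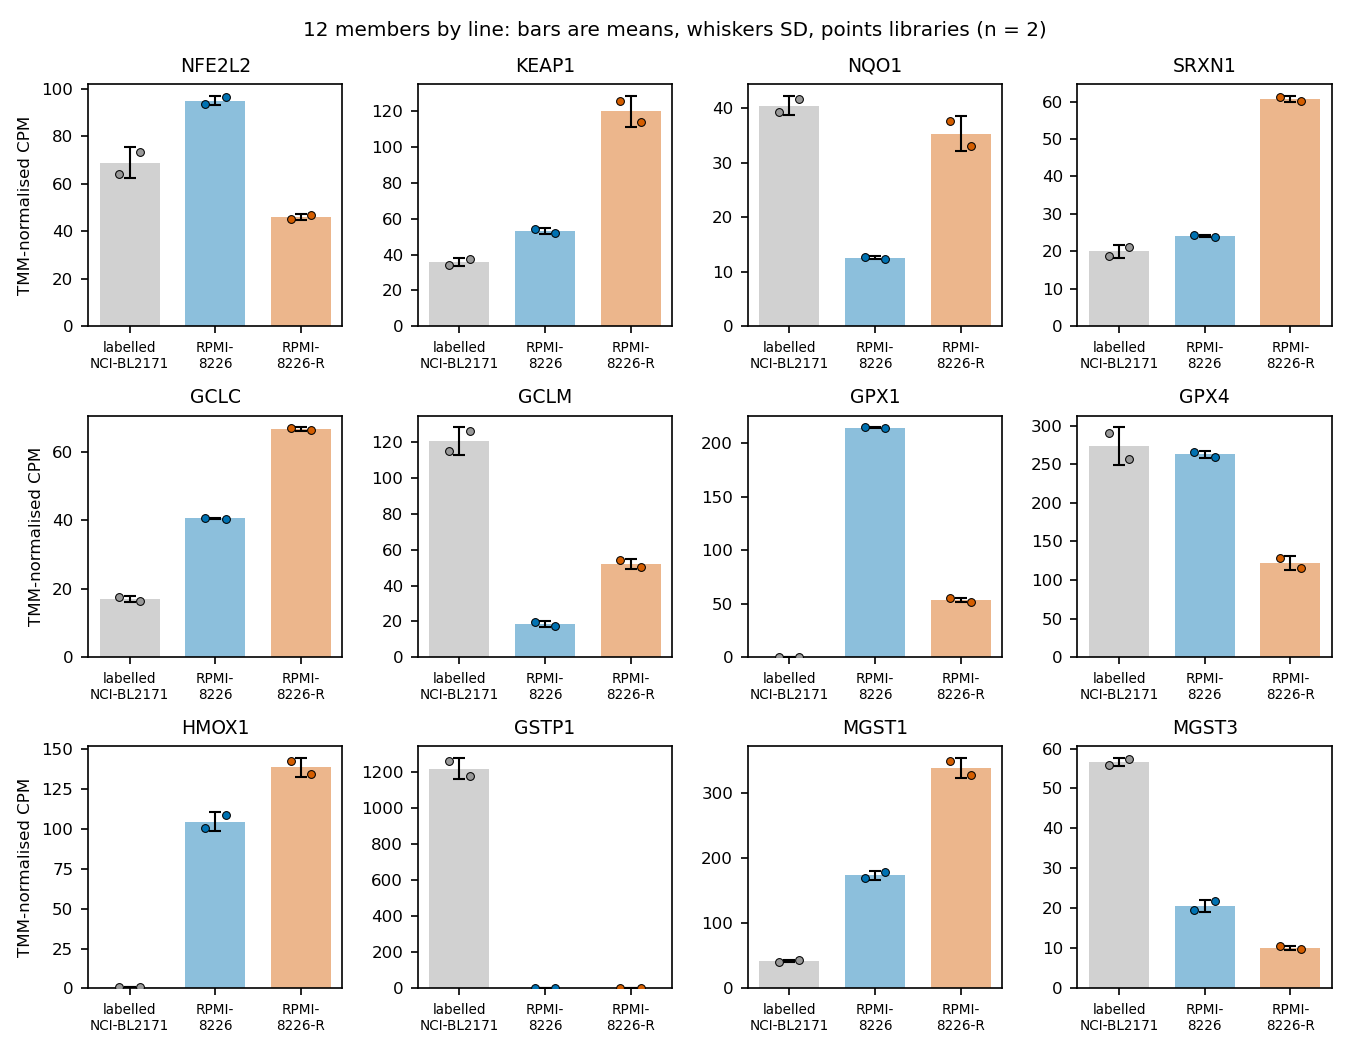
TMM-normalised CPM of 12 members in the 3 lines, each panel with its own axis from 0. Bars are means of 2 libraries, whiskers SD and points the libraries; KEAP1, NQO1, SRXN1, GCLC, GCLM, HMOX1 and MGST1 stand higher in RPMI-8226-R than in RPMI-8226, and NFE2L2, GPX1, GPX4 and MGST3 lower.

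The scaling matters for these counts. Between RPMI-8226-R and RPMI-8226 the TPM scale lies above the CPM scale by a median of 0.38 log2 units over 15379 genes, so modest falls in CPM become rises in TPM. On the TPM scale 27 of the 37 members with a read in both lines were higher in RPMI-8226-R and 10 lower. The direction flipped for 7 of them, 3 of which had been called: GSS, PRDX2 and GSTK1. With limma-trend on log2(TPM + 1), 24 members were called higher and 10 lower. Over all genes, 60.7% of the calls were then higher, against 43.4% by edgeR on the counts. Members with a change of over 0.7 log2 units on the CPM scale kept their direction on both, including KEAP1, NQO1, GCLM, GCLC, SRXN1, MGST1, NFE2L2, the glutathione peroxidases and the ferritin chains.

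**Figure D4:**
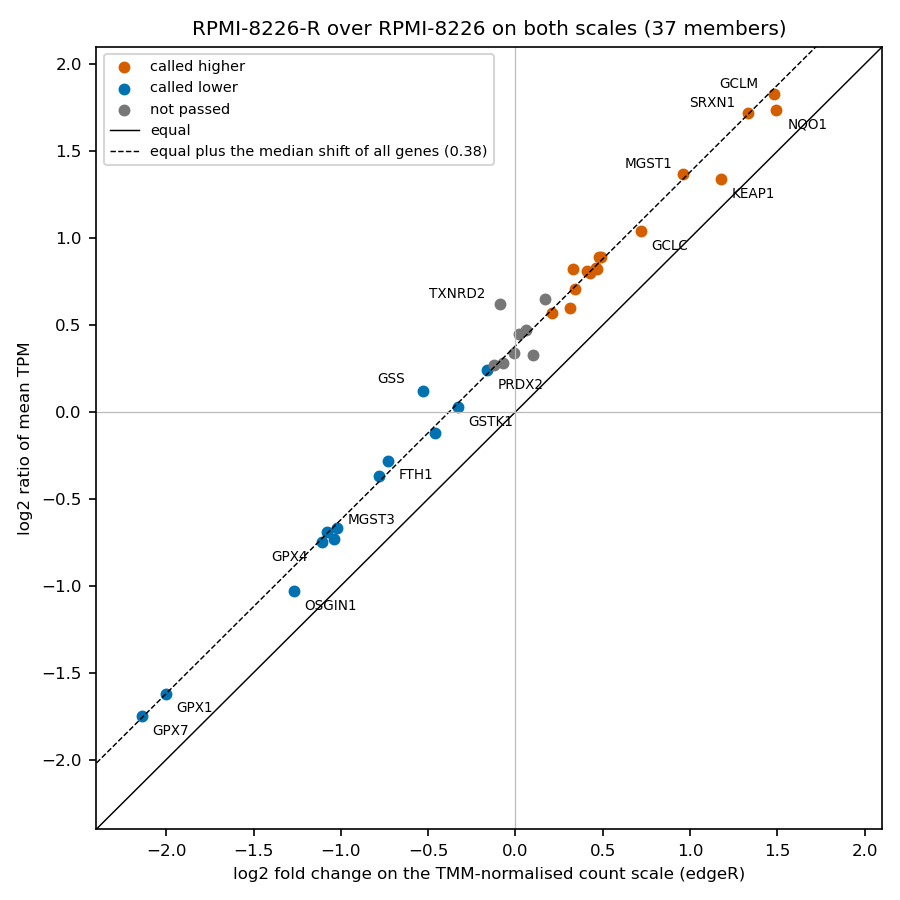
Log2 fold change of 37 members in RPMI-8226-R over RPMI-8226 on the TMM-normalised count scale (x axis, edgeR) and as the log2 ratio of mean TPM (y axis). The members lie near the dashed line, which is the line of equality raised by the median shift of all genes, 0.38; GSS, PRDX2 and GSTK1 were called lower on counts and lie above 0 in TPM.

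The core of the antioxidant response element, TGACNNNGC, was searched on both strands of the promoters from 250 bases before to 50 bases after the start of each gene (RefSeq, GRCh38.p14). It occurred in 9 of 40 promoters of members (22.5%) and in 4687 of 35116 promoters of all genes (13.3%). Of the 30 members with a promoter in that table, 8 had a match: GCLM, GSTO1, GSTP1, KEAP1, ME1, MGST1, PGD and TXNRD1. Among members higher in RPMI-8226-R than in RPMI-8226, 6 of the 12 with a promoter had a match, among those lower 1 of 12, and among those that did not pass 1 of 6. The split ran the other way against the libraries labelled NCI-BL2171, with a match in 3 of 12 higher and 5 of 14 lower members for RPMI-8226 and in 3 of 12 and 5 of 15 for RPMI-8226-R. These splits count genes, and a gene counts where any of its promoters has a match. The 13.3% is a share of promoters and so is no background for them, and no share of all genes by call was computed. Such matches are descriptions of these windows, known elements often lie farther away, and no binding was measured. The 250 bases before the start are printed for 4 members that rose and for GSTP1, the member that fell to no read. All of these hold the motif, but they are examples: PGD, which also rose and holds a match there, is not printed. KEAP1 and TXNRD1 each have another promoter that is not printed, with 0 and 2 matches. Capitals mark the matches, and the printed sequences read in the direction of the gene. They are GCLM at chr1:93909431-93909680 on the minus strand, KEAP1 at chr19:10502772-10503021 on the minus strand, ME1 at chr6:83431052-83431301 on the minus strand, TXNRD1 at chr12:104286782-104287031 on the plus strand and GSTP1 at chr11:67583562-67583811 on the plus strand.
GCLM: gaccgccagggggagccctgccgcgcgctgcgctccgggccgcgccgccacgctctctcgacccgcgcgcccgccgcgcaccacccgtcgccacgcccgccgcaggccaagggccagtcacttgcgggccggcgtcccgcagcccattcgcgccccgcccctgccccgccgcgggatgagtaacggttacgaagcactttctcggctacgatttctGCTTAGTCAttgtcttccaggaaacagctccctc
KEAP1: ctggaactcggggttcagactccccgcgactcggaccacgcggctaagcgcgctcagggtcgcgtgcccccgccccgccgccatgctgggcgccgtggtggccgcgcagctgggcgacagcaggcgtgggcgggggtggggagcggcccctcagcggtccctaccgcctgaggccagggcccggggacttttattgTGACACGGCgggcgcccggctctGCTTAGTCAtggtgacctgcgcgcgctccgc
ME1: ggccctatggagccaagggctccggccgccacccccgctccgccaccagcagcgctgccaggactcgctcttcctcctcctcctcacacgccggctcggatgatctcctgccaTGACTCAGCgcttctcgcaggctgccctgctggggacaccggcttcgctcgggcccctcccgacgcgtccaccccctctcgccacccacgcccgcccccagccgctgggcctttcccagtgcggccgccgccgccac
TXNRD1: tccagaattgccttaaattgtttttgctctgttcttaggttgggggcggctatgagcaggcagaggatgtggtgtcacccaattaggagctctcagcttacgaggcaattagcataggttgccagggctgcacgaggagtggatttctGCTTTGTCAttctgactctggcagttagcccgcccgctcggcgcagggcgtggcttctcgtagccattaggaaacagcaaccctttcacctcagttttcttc
GSTP1: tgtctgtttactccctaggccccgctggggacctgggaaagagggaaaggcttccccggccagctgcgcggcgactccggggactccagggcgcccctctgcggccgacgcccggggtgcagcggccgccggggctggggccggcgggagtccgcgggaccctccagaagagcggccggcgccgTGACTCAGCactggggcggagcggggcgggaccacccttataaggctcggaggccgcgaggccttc
GSTP1 and ME1 share the same 9 letters, TGACTCAGC, at 66 and 137 bases before the start, and GCLM and KEAP1 share GCTTAGTCA, the same core on the other strand, at 34 and 31 bases before it. GSTP1, with such a match, was without a read in RPMI-8226-R, while GCLM, KEAP1 and ME1 rose there.

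The wider pathway lists are read against the 28.5% of all genes called higher and 37.2% called lower between RPMI-8226-R and RPMI-8226, with a median of -0.12. Their counts depended on the scale, and those by limma-trend on log2(TPM + 1) follow the counts by edgeR. The limma-trend counts have a background of their own: of all 20081 genes tested, 7030 were called higher and 4557 lower. Of 15 regulators and partners of NRF2, 3 rose and 9 fell, with a median log2 fold change of -0.51 (5 and 3 on TPM). MAFF, a small MAF protein, fell by 2.58 ± 0.11 and NFE2L1, the related factor that drives proteasome genes, fell by 1.14 ± 0.06 on the log2 scale. PGAM5, a mitochondrial phosphatase that binds KEAP1, rose by 0.88 ± 0.08, and CUL3, the ubiquitin ligase scaffold that KEAP1 uses, rose by 0.45 ± 0.09 (log2). Of 29 further NRF2 target genes tested, out of 35, 10 rose and 10 fell, shares near those of all genes (13 and 6 on TPM). CBR3, a carbonyl reductase, rose from 21.9 ± 1.8 to 114 ± 12.3 CPM (SD, n = 2), a log2 fold change of 2.38 ± 0.10. ABCC4, an efflux transporter, rose by 1.33 ± 0.09, while MT1G, a metallothionein, was lower at -4.18 ± 0.47 (log2), from 3.35 ± 0.52 to 0.182 ± 0.110 CPM (SD, n = 2).

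Of 25 tested genes of glutathione supply, turnover and conjugation, 6 rose and 14 fell, with a median log2 fold change of -0.42 (8 and 7 on TPM). CHAC1 and CHAC2 both break glutathione down, and they moved apart: CHAC1 was lower at -3.61 ± 0.18 and CHAC2 higher at 1.61 ± 0.15 (log2). SLC3A2, the partner chain of the cystine importer, stood at 538.5 ± 25.03 CPM in RPMI-8226 and 184 ± 2.2 CPM in RPMI-8226-R (SD, n = 2), a log2 fold change of -1.55 ± 0.06. CBS, the entry enzyme of the route from methionine to cysteine, rose by 0.79 ± 0.07 (log2). Of 19 tested partners of thioredoxin and glutaredoxin, 4 rose and 10 fell (7 and 6 on TPM). SESN2 and SESN1, sestrins induced by stress, were lower at -2.64 ± 0.08 and -2.35 ± 0.10 (log2). GLRX3, a glutaredoxin that handles iron-sulfur clusters, and SEPHS2, which makes the selenium donor for selenoproteins, were higher at 0.79 ± 0.13 and 0.66 ± 0.07 (log2). Of 24 tested genes of superoxide, NADPH, haem and iron handling, 9 rose and 8 fell (19 and 3 on TPM). FLVCR1, a haem exporter, and HMOX2, the constitutive haem oxygenase, were higher at 1.45 ± 0.13 and 1.12 ± 0.10 (log2), and MTHFD2, a mitochondrial folate enzyme, was lower at -1.03 ± 0.06 (log2). Each of these named list genes had an edgeR adjusted p of at most 0.0002.

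The next 2 comparisons set each RPMI-8226 line against the libraries labelled NCI-BL2171. They share those 2 libraries and are therefore not independent of each other. In RPMI-8226, 13 members were higher, 21 lower and 4 did not pass, with a median log2 fold change of -0.25 (all genes tested 0.09). Over all genes tested 41.1% were higher and 35.6% lower. In RPMI-8226-R, 13 were higher, 21 lower and 4 did not pass, with a median of -0.38 (all genes tested 0.00), against 39.2% higher and 38.2% lower over all genes tested. At least 2-fold changes among the called members numbered 17 and 21. The median absolute log2 fold change of all genes tested was 1.02 and 1.11, so changes of that size were common everywhere.

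The widest contrasts lay in 4 members. GSTP1 stood at 1261 and 1177 CPM in the libraries labelled NCI-BL2171, 0.781 and 1.03 CPM in RPMI-8226 and no read in RPMI-8226-R. It was 1346-fold lower in RPMI-8226 by counts (log2 fold change -10.39 ± 0.12, edgeR adjusted p = 1.5e-23) and at least 11330-fold lower in RPMI-8226-R. The log2 ratio for RPMI-8226 was smaller on TPM, at -9.29, and the mean length given for GSTP1 was 699 bases in the libraries labelled NCI-BL2171 and 384.5 bases in RPMI-8226. GPX1 had no read in the libraries labelled NCI-BL2171, and was at least 1859-fold higher in RPMI-8226 and at least 464-fold higher in RPMI-8226-R against the same floor. GSTP1 (chr11:67583595-67586656, plus strand) was thus most abundant in the libraries in which GPX1 (chr3:49357171-49358600, minus strand) had no read. GENCODE 29 on GRCh38 lists GSTP1 as protein coding and GPX1 as a polymorphic pseudogene. HMOX1 stood at 0.734 and 0.765 CPM in the libraries labelled NCI-BL2171, a log2 fold change of 7.12 ± 0.13 in RPMI-8226 and 7.52 ± 0.13 in RPMI-8226-R. GPX7 had 3 reads and 1 read there and was called higher in both RPMI-8226 lines (edgeR adjusted p = 1.6e-16 and 8.8e-13).

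The glutathione and thioredoxin genes were unevenly placed between the lines; the values that follow are log2 fold changes of RPMI-8226 and then RPMI-8226-R over the libraries labelled NCI-BL2171, and those called higher or lower had an edgeR adjusted p under 0.05. GCLM stood at 115 and 126 CPM in the libraries labelled NCI-BL2171, above both RPMI-8226 lines, with log2 fold changes of -2.69 ± 0.09 in RPMI-8226 and -1.21 ± 0.08 in RPMI-8226-R. GCLC stood at 17.7 and 16.3 CPM there, below both, with 1.26 ± 0.09 and 1.97 ± 0.09. The ratio of GCLM to GCLC on the TPM scale was accordingly 2.31 and 3.09 in the libraries labelled NCI-BL2171. GSR was lower by log2 fold changes of -1.56 ± 0.08 and -1.10 ± 0.07, and GLRX higher at 2.09 ± 0.10 and 2.27 ± 0.10. TXNRD2 stood at 49.5 and 49.1 CPM in the libraries labelled NCI-BL2171, and its log2 fold changes were -3.25 ± 0.12 and -3.34 ± 0.12. TXNRD1 was lower by less, at -0.77 ± 0.07 and -0.29 ± 0.07, and the latter call was lost on the TPM scale at -0.11. A ribosomal protein pseudogene, RPL18AP3, lies within TXNRD1 on the same strand and held 22120 to 39200 reads, so the counting of TXNRD1 is uncertain. SRXN1 was higher in RPMI-8226-R at 1.60 ± 0.09, whereas in RPMI-8226 the log2 fold change was 0.27 ± 0.09 (edgeR adjusted p = 0.012) and the call was lost on TPM at 0.04, with the effective-length offset at 0.25, in DESeq2 at 0.23, without NCI-BL2171 replicate 1 at 0.18 and without RPMI-8226 replicate 1 at 0.27. TXN was lower in RPMI-8226 at -0.28 ± 0.07, a call lost without RPMI-8226 replicate 1 at -0.22, and did not pass in RPMI-8226-R at 0.03 ± 0.07. GSS was lower in both lines, at -0.50 ± 0.08 and -1.04 ± 0.08.

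Of the 6 peroxiredoxins, 2 were higher and 2 lower in RPMI-8226, and 2 higher and 3 lower in RPMI-8226-R. PRDX6, which uses glutathione, stood at 667 and 645 CPM in the libraries labelled NCI-BL2171. It was lower at -1.63 ± 0.07 in RPMI-8226 and -1.53 ± 0.07 in RPMI-8226-R. PRDX4 stood at 91.9 CPM in both libraries and was higher at 1.28 ± 0.07 and 1.15 ± 0.07. PRDX1, an abundant cytosolic form, was lower at -0.45 ± 0.07 and -0.46 ± 0.07, and PRDX5, found in mitochondria and peroxisomes, higher at 0.61 ± 0.07 and 0.67 ± 0.07. PRDX3, the mitochondrial form, passed in neither comparison by edgeR on all 6 libraries, at 0.14 ± 0.07 and 0.07 ± 0.07. For RPMI-8226 it was called higher with only the 4 libraries compared, at 0.15, but came to -0.07 on TPM. For RPMI-8226-R it was called higher on TPM, at 0.21. PRDX2, abundant in red cells, did not pass on counts in RPMI-8226 at -0.09 ± 0.06 but was called lower on TPM at -0.30, and was lower in RPMI-8226-R at -0.25 ± 0.06, a call lost on the TPM scale at -0.06. SOD1 was lower in RPMI-8226 at -0.22 ± 0.07, a call lost without NCI-BL2171 replicate 1 at -0.16 and without RPMI-8226 replicate 2 at -0.18, and did not pass in RPMI-8226-R. CAT was lower at -1.19 ± 0.07 and -1.65 ± 0.07. GPX4 did not pass on counts in RPMI-8226 at -0.06 ± 0.07, was called lower on TPM at -0.24, and was lower in RPMI-8226-R at -1.17 ± 0.07.

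The transferases other than MGST1 were all lower in both RPMI-8226 lines than in the libraries labelled NCI-BL2171. Beside GSTP1, the log2 fold changes in RPMI-8226 and RPMI-8226-R were -2.20 ± 0.07 and -2.18 ± 0.07 for GSTO1 and -1.46 ± 0.09 and -2.48 ± 0.10 for MGST3. GSTK1 had -0.64 ± 0.07 and -0.96 ± 0.07, and MGST2 -0.98 ± 0.15 and -0.50 ± 0.14, the latter call lost without RPMI-8226-R replicate 2 at -0.36. MGST1 stood at 40.7 and 43.5 CPM in the libraries labelled NCI-BL2171 and was higher at 2.04 ± 0.07 and 3.00 ± 0.07. MGST1 levels were thus lowest in the libraries labelled NCI-BL2171, higher in RPMI-8226 and highest in RPMI-8226-R, and MGST3 levels took the reverse order. NQO1 stood at 39.3 and 41.8 CPM in the libraries labelled NCI-BL2171 and was lower in RPMI-8226 at -1.69 ± 0.10, while the difference of RPMI-8226-R, -0.20 ± 0.09, did not pass (edgeR adjusted p = 0.059). OSGIN1 was lower in both, at -0.90 ± 0.18 and -2.16 ± 0.20. FTL was lower in both lines, at -0.46 ± 0.07 and -1.54 ± 0.07, and SLC48A1 higher at 1.68 ± 0.08 and 0.90 ± 0.08. FTH1 was lower at -0.16 ± 0.07 in RPMI-8226 (edgeR adjusted p = 0.032), a call lost in 4 of the 6 fits that left out a library, and at -0.89 ± 0.07 in RPMI-8226-R.

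NADPH supply and the sensor pair complete the set. PGD stood at 442 and 416 CPM and TALDO1 at 431 and 430 CPM in the libraries labelled NCI-BL2171, and both were lower in the RPMI-8226 lines. Their log2 fold changes were -0.80 ± 0.06 and -0.96 ± 0.06 in RPMI-8226 and -0.46 ± 0.06 and -0.54 ± 0.06 in RPMI-8226-R. TKT did not pass in RPMI-8226 on counts at 0.10 ± 0.06, was called lower on log2(TPM + 1) at -0.24, and was higher in RPMI-8226-R at 0.44 ± 0.06. ME1 was higher at 0.30 ± 0.09 in RPMI-8226, a call lost on TPM at 0.08 and, at 0.24 each, without NCI-BL2171 replicate 1 and without RPMI-8226 replicate 1, and at 0.77 ± 0.09 in RPMI-8226-R. KEAP1 was higher in both lines, at 0.57 ± 0.08 and 1.74 ± 0.08. NFE2L2 was higher in RPMI-8226 at 0.46 ± 0.08 and lower in RPMI-8226-R at -0.58 ± 0.08, so that the libraries labelled NCI-BL2171 lay between the 2 RPMI-8226 lines for NFE2L2. Between the scales the median shift of all genes was -0.22 in the comparison of RPMI-8226 and 0.16 in that of RPMI-8226-R against the libraries labelled NCI-BL2171, in log2 units of TPM over CPM. Among members with a read in both lines, none that was called in these 2 comparisons changed direction on the TPM scale.

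Over all genes tested, 41.1% were called higher and 35.6% lower in RPMI-8226 than in the libraries labelled NCI-BL2171. In RPMI-8226-R the shares were 39.2% and 38.2%. The counts of the wider pathway lists are to be read against these shares. Regulators and partners of NRF2 were higher for 8 and lower for 3 of 15 genes in RPMI-8226, and higher for 7 and lower for 5 in RPMI-8226-R. NFE2, the blood cell relative of NRF2 that serves globin genes, stood at 101 ± 4.2 CPM in the libraries labelled NCI-BL2171, 0.117 ± 0.114 in RPMI-8226 and 0.0520 ± 0.0735 in RPMI-8226-R (SD, n = 2). NFE2L3, another relative, was higher at 2.74 ± 0.08 and 2.23 ± 0.08 (log2). Of 29 further target genes, 10 were higher in each line and 15 and 18 lower. AKR1C1, an aldo-keto reductase, was lower at -4.78 ± 0.11 and -6.01 ± 0.13 (log2). CBR3 had no read in the libraries labelled NCI-BL2171. Of 25 genes of glutathione supply and use, 6 were higher and 14 lower in RPMI-8226, and 5 and 19 in RPMI-8226-R. GGT1, which opens the breakdown of glutathione outside the cell, was higher at 3.22 ± 0.11 and 2.86 ± 0.11 (log2). GSTM3, a mu-class transferase at 9.89 ± 0.54 CPM in the libraries labelled NCI-BL2171 (SD, n = 2), had no read in either RPMI-8226 line. Among 19 partners of thioredoxin, 9 were higher and 9 lower in RPMI-8226, and 8 and 8 in RPMI-8226-R. NXN, nucleoredoxin, was higher at 4.62 ± 0.16 and 4.16 ± 0.16 (log2). Of 24 genes of superoxide, NADPH, haem and iron handling, 6 were higher and 13 lower in RPMI-8226, and 9 and 13 in RPMI-8226-R. The biliverdin reductases moved apart, with BLVRB lower at -2.75 ± 0.07 and -2.81 ± 0.07 and BLVRA higher at 1.08 ± 0.08 and 1.55 ± 0.08 (log2).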

How the data were processed

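Total RNA depleted of ribosomal RNA was sequenced from 6 untreated libraries of 3 cell lines. The authors deposited, per library, estimated counts of reads and TPM per gene, with the length and effective length in bases as another deposited unit, used only for an offset. GRCh38.p13 is named in the submitters' processing notes. The tool that quantified the reads, its gene models and strand setting were not given in the sources used here. Rows for 46 Y chromosome copies (88666 reads) were added to the X copies. Symbols came from the reference tables and positions from GENCODE 29.

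The members and gene lists were chosen with earlier results of these data known. Counts were rounded and tested in edgeR 4.0.16 (R 4.3.3; TMM, filterByExpr by line with minimum count 10 and minimum total 15, quasi-likelihood F test with robust fitting, all 6 libraries, 3 residual degrees of freedom, two-sided, Benjamini-Hochberg over 20081 genes). Fold changes are given as estimate ± SE. The typical coefficient of variation was 6.81%. In a line without a read, 3 counts per library served as a floor; it covers counting error only. In each of the 5 pathway lists, up to 2 called genes per direction with the largest change and at least 5 TPM on average where higher were named. The procedure was tested on simulated data. Alternatives were DESeq2 1.42.0, no filter, an effective-length offset, limma-trend (limma 3.58.1) on log2(TPM + 1), the 4 libraries compared alone, a replicate block, each library left out, and reads of processed copies added, the last chosen after seeing the data.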

Additional observations from a re-analysis of the deposited data

How the results depend on the processing

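The totals of members called in each direction never moved by over 1.5 times, but counts within a role did: on log2(TPM + 1) all 6 peroxiredoxins were higher and none lower in RPMI-8226-R against RPMI-8226, against 0 and 1 by edgeR and 1 and 0 by DESeq2. Leaving out 1 library at a time gave 14 to 18 members higher and 13 to 15 lower in RPMI-8226-R against RPMI-8226, 11 to 14 and 19 to 21 in RPMI-8226 against the libraries labelled NCI-BL2171, and 13 to 14 and 20 to 22 in RPMI-8226-R against them. Where this left 1 library in a line, that library was assumed to vary like the others. On log2(TPM + 1), limma-trend called 24 higher and 10 lower in the first comparison. With a replicate block the counts equalled those without it (16 and 14, 13 and 21, 13 and 21) and every member's call and direction stood. The numbers pair nothing by the labels, and deviations of same-numbered libraries correlated at 0.0774, 0.0708 and 0.0683 over 16119 genes.

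Directions turned for these log2 fold changes, and the cause was not tested. In RPMI-8226-R against RPMI-8226 on TPM, GSS came to 0.12, TXNRD2 0.50, PRDX1 0.34, PRDX2 0.24, PRDX3 0.27, PRDX4 0.26 and GSTK1 0.03. With the effective-length offset, TXNRD2 came to 0.26 and PRDX1 to 0.02. PRDX1 was 0.04 in DESeq2, and with only the 4 libraries compared PRDX1 was 0.07 and PRDX3 0.01. The fits without 1 library ranged from -0.08 to 0.08 for PRDX1, -0.14 to 0.02 for PRDX3 and -0.02 to 0.15 for PRDX5. In RPMI-8226 against the libraries labelled NCI-BL2171, PRDX3 came to -0.07 on TPM, TKT to -0.24 on TPM and -0.04 with the offset, and GPX4 ranged from -0.16 to 0.03 without 1 library. In RPMI-8226-R against them, TXN came to -0.01 with the offset and SOD1 to 0.01 with the offset and 0.13 on TPM. The fits without 1 library ranged from -0.03 to 0.11 for TXN, -0.01 to 0.15 for PRDX3 and -0.11 to 0.09 for SOD1.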
